A study of Mus musculus with 4 samples.

Results

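The endogenous CD45+ cells sorted from B16-F10 tumours were compared between mice given IRF4-transduced Pmel-1 cells and mice given control Pmel-1 cells. Every barcode of these 2 libraries was taken as a member if it held 1000 or more unique molecular identifiers (UMIs) from 500 or more genes, with no more than 10% of them mitochondrial. That gave 12047 cells, 6371 of the IRF4 arm and 5676 of the control arm, of 15132 kept cells in the series. The other kept cells were transferred Pmel-1 cells, 572 of the IRF4 arm and 2513 of the control arm.

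B16-F10 is a melanoma line that grows in C57BL/6 mice, and Pmel-1 cells are CD8 T cells whose transgenic receptor recognises gp100, a protein of melanocytes. In both arms the Pmel-1 cells were given on day 3 after tumour implantation and the tumours were taken on day 14. The IRF4 arm received cells transduced with IRF4 and GFP, and the control arm received cells transduced with GFP alone, so both arms carried transferred tumour-specific T cells and neither was untreated. The cells described here were sorted as the host's own CD45+ cells, which were not transduced. Whether any transferred cells were among them was not resolved. Sorted cells went into a droplet 3' RNA assay with 1 library in each group and 4 in the series. The labels do not say how many mice went into a library, or give their age or sex. With 1 library a side the arm and the library cannot be told apart, so no difference was tested, and every interval below is a 95% interval for counting error alone.

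IRF4 is a transcription factor that T cell receptor signals induce and that effector CD8 T cells need. A tumour's CD45+ infiltrate holds T and natural killer cells, which can kill tumour cells, and phagocytes and dendritic cells, which take up and present antigen. Tumour macrophages range from inflammatory cells that respond to interferon to cells that clear debris, store iron and express scavenger receptors. Immediate early genes such as Fos and Dusp1 respond within minutes to receptor signals, and also to the handling of a tissue. Interferon-stimulated genes respond to type I or type II interferon in almost every cell type.

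Pairs of values are given as IRF4 arm against control arm, in that order. The 2 libraries held 6981 and 6375 barcodes with 81843816 and 84211837 UMIs. Kept cells had a median of 8437 against 10521 UMIs, and 3.85% and 3.70% of a median cell's UMIs were mitochondrial. Barcodes over the mitochondrial limit made up 8.51% and 9.24%. The libraries shared 13 barcodes among kept cells, 0.204% of the IRF4 arm and 0.229% of the control arm. Ptprc, the gene of CD45 itself, had a UMI in 98.3% and 96.6% of kept cells.

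Cells were sorted into classes with 13 panels of 8 marker genes. A panel had to show at least 3 of its genes in a cell, and to lead the panels of every other compartment by at least 2 genes. Cells with panels of 2 compartments close together were set aside as mixed. Cells with too few panel genes to be gated numbered 37 against 53. Others had a compartment but no class, because no panel within it led clearly. These unresolved cells numbered 131 against 51 among T and natural killer cells. Among monocytes, macrophages and conventional dendritic cells they numbered 113 against 164. They entered only the totals of their compartments. The median lead was 5 genes in both libraries, and 4.77% and 5.41% of cells sat exactly at the lead required, with 3.17% and 5.67% of cells 1 gene short of it. Non-immune cells, gated on melanoma, fibroblast or endothelial genes, numbered 6 and 14.

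The make-up of the infiltrate differed widely between the arms. T and natural killer (NK) cells together took 68.3% (67.2 to 69.5) of kept cells against 37.0% (35.8 to 38.3). The mononuclear phagocytes, which are monocytes, macrophages and conventional dendritic cells, took 22.6% (21.6 to 23.6) against 40.0% (38.7 to 41.3). The IRF4 library was thus mostly lymphoid, while the control library held slightly more phagocytes than T and NK cells.

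Endogenous CD8 T cells differed most among the classes that were larger in the IRF4 arm. They were 2055 cells, 32.3% (31.1 to 33.4) of the IRF4 arm, and 753 cells, 13.3% (12.4 to 14.2) of the control arm. The ratio of shares was 2.43 (2.24 to 2.65). NK cells took 17.5% against 10.1%, a ratio of 1.72 (1.55 to 1.91). Other T cells took 9.67% against 7.03%, a ratio of 1.38 (1.21 to 1.56). These had no Cd4, Cd8a, Cd8b1 or Foxp3 UMI, or had Cd8a or Cd8b1 together with Cd4 or Foxp3. Regulatory T cells, which carry Foxp3 and restrain other T cells, took 1.88% against 1.37%, a ratio of 1.37 (1.02 to 1.85). For conventional CD4 T cells the interval reached both sides of 1, at 5.02% against 4.30% and a ratio of 1.17 (0.986 to 1.39).

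Every antigen-presenting class and the neutrophils took a smaller share in the IRF4 arm. B cells showed the widest gap, at 124 cells or 1.95% (1.62 to 2.32) against 504 cells or 8.88% (8.15 to 9.65), a ratio of 0.219 (0.179 to 0.267). Monocytes and macrophages, gated together, took 18.1% against 31.7%, a ratio of 0.571 (0.530 to 0.615). Among dendritic cells, the cross-presenting cDC1 numbered 50 against 89 (ratio of shares 0.501) and the cDC2, which mainly prime CD4 T cells, 62 against 130 (ratio 0.425). Mature dendritic cells, which carry Ccr7 and migrate to lymph nodes, numbered 60 against 85 (ratio 0.629). Plasmacytoid dendritic cells, the specialised makers of type I interferon, numbered 76 against 153 (ratio 0.443), and neutrophils 41 against 82 (ratio 0.445). Mast cells and basophils were the exception, with 36 against 37 cells and a ratio of 0.867 (0.532 to 1.41).

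**Figure D1:**
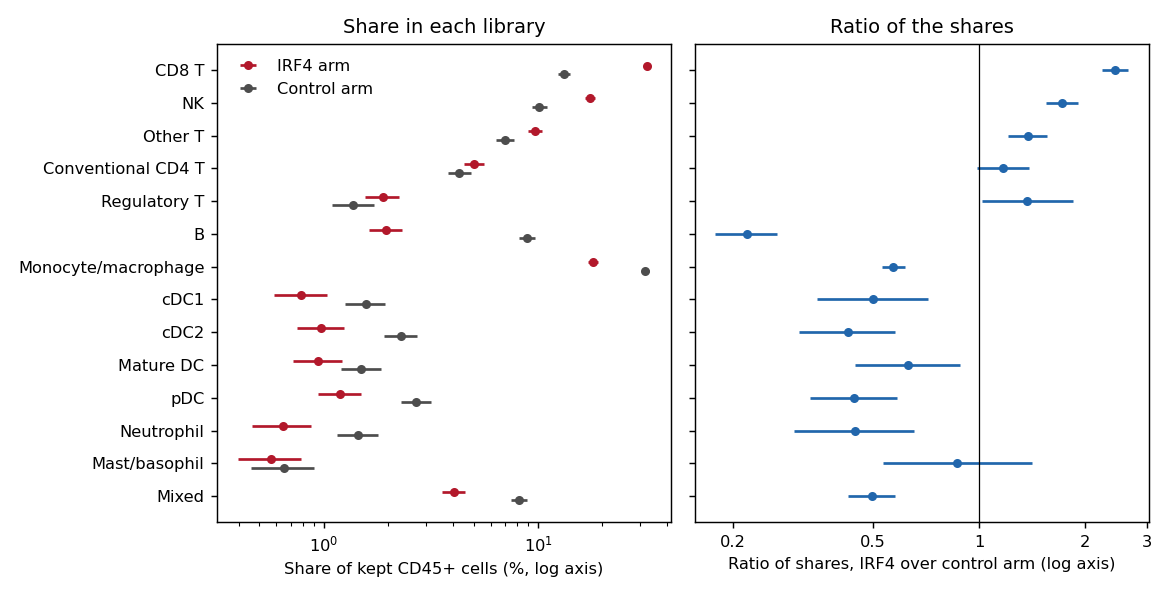
Left, the share of kept CD45+ cells in each gated class in the IRF4 arm (red) and the control arm (grey), in percent on a log axis, with exact 95% intervals for counting error. Right, the ratio of the 2 shares on a log axis, where CD8 T cells stand highest at 2.43 and B cells lowest at 0.219; each arm is 1 library.

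Shares in a library sum to a fixed total, so pairs of classes were also set against each other within each library. There were 1.78 CD8 T cells per monocyte or macrophage against 0.418. The number of NK cells per monocyte or macrophage was 0.963 against 0.320. There were 17.1 CD8 T cells per regulatory T cell against 9.65, and 25.1 T cells of any kind per B cell against 2.92. The regulatory T cell gate needs a Foxp3 UMI, so the first of these contrasts depends on depth. The regulatory T cells' ratio of shares was 1.37, but 2.02 with cells thinned to 2000 UMIs. Ratios within the phagocytes differed less: conventional dendritic cells per monocyte or macrophage stood at 0.149 against 0.169, and cDC1 per cDC2 at 0.806 against 0.685. The widest of these contrasts were T cells against B cells and CD8 T cells against monocytes and macrophages.

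The sort was made to separate transferred from endogenous cells, and the receptor of the Pmel-1 cells allowed a partial check. Their transgenic beta chain uses Trbv14, a choice of gene made after the data were seen. Of CD8 T cells with any Trbv UMI, 98.9% of the transferred IRF4 library and 98.8% of the transferred control library had a Trbv14 UMI. Among endogenous CD8 T cells the figure was 50 of 753, or 6.64% (4.97 to 8.66), against 3 of 259, or 1.16% (0.240 to 3.35). Host CD8 T cells also use Trbv14, so host and Pmel-1 cells with Trbv14 cannot be told apart here. The source of the difference between the arms was not tested. With that share taken off the CD8 T cells of each library, they made up 30.8% and 13.1% of the infiltrate, a ratio of 2.34.

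Mixed cells made up 4.03% of the IRF4 arm and 8.14% of the control arm. Of them, 192 of 257 and 335 of 462 joined a T or NK panel to a phagocyte panel. Their median depth was 18611 and 25755 UMIs, above that of every compared class in the IRF4 arm except cDC1 and above all but cDC1 in the control arm. No doublet caller was run, and these cells entered no class.

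Within each class, UMIs were summed over cells and scaled to the class total as CPM, the usual depth-normalised unit. A gene was measured in a class at 20 CPM and 20 UMIs or more in the higher library, and was counted as higher or lower past a ratio of 1.5 between arms, after 1 CPM was added to each level. Printed ratios are plain ratios of CPM. In all, 11 lineages had at least 50 cells and 200000 UMIs on each side. These lineages come from the same 2 libraries and share their free RNA, so they are not replicates of each other.

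The number of genes that differed varied among lineages. In NK cells 75 of 5859 measured genes were higher (1.28%) and 51 lower (0.870%). Other T cells had 86 higher (1.45%) and 107 lower (1.80%), and CD8 T cells 206 higher (3.53%) and 291 lower (4.99%). In monocytes and macrophages 354 genes were higher (6.27%) and 247 lower (4.37%). Regulatory T cells had 461 higher (7.32%) and 738 lower (11.7%), B cells 444 higher (8.96%) and 482 lower (9.73%), and conventional CD4 T cells 523 higher (8.78%) and 337 lower (5.65%). Among dendritic cells, cDC1 had 201 higher (3.72%) and 162 of 5405 lower, cDC2 357 (6.20%) and 377 (6.55%), mature dendritic cells 350 (6.88%) and 427 (8.39%), and plasmacytoid cells 302 (5.11%) and 279 (4.72%). Depth and cell number differ between lineages, so these counts do not rank them.

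A set of 37 genes differed in the same direction across lineages. Of 6411 genes measured in at least 4 lineages, 19 (0.296%) were higher and 18 (0.281%) lower in the IRF4 arm in at least 75% of them, with no lineage past the ratio in the opposite direction. The higher genes were mainly immediate early genes and interferon-stimulated genes. The lower genes were mainly genes that macrophages use, such as Hmox1, Pf4, Dab2, Mrc1 and Arg1.

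**Figure D2:**
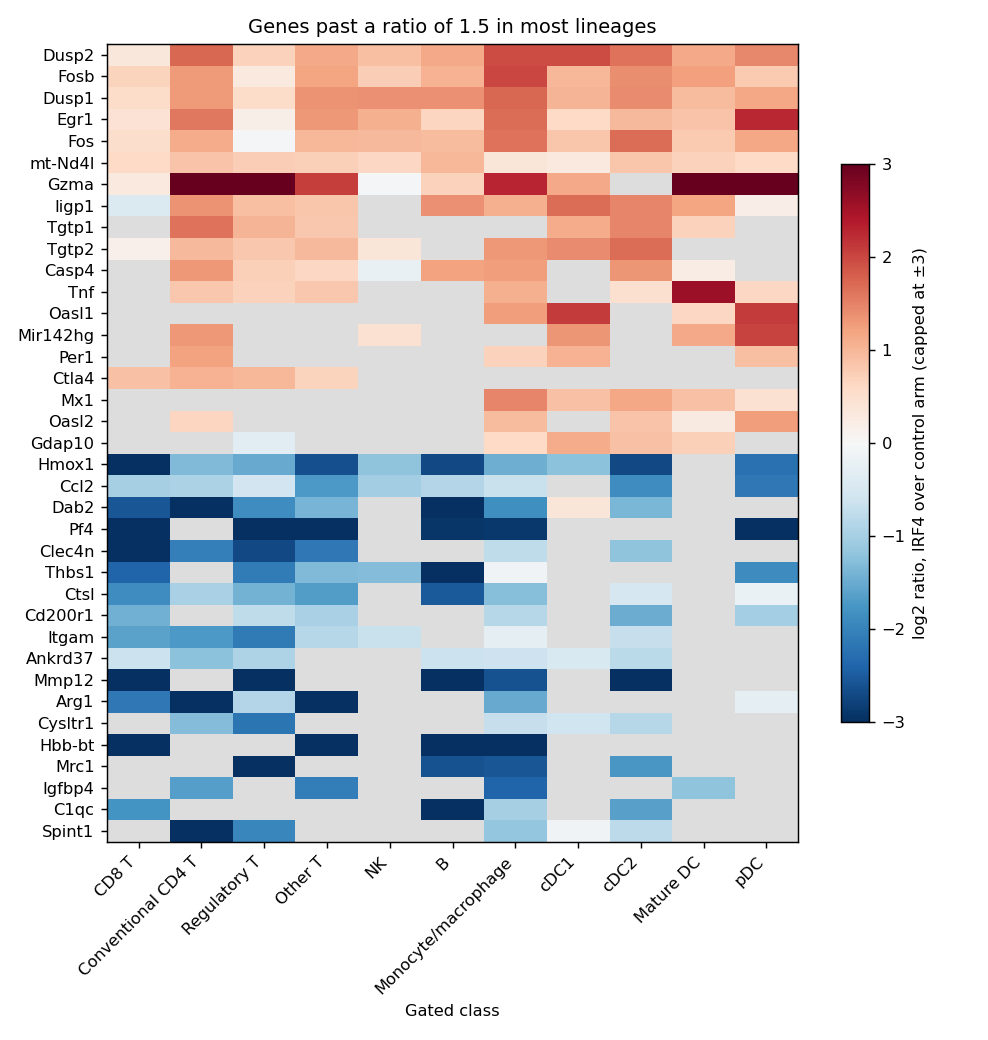
The log2 ratio of CPM, IRF4 over control arm, of the 19 higher and 18 lower genes in each of 11 lineages (1 library an arm), with red higher, blue lower, colours capped at 3 either way, and grey where a gene was not measured. The rows for Fos, Fosb, Dusp1, Dusp2 and Egr1 are red in most columns, and grey gaps are more frequent in the lower genes.

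The immediate early genes stood out first. Fos encodes a subunit of the AP-1 transcription factor and lies on chromosome 12 (85473890 to 85477273, plus strand, mm10 coordinates from GENCODE vM21). Fosb, on chromosome 7 (19302696 to 19310051, minus strand), encodes a close relative of it, and Dusp1, on chromosome 17 (26505590 to 26562128, minus strand), a phosphatase that switches off MAP kinases. Fos and Dusp1 respond to cAMP and calcium through a cAMP response element, a site bound by CREB, whose conserved core is TGACG. Since the 3 genes differ together in these cells, the 160 bases before their start sites are shown with that core, on either strand, in capitals. The windows are from RefSeq on GRCm38.p6 and read 5′ to 3′ along the gene: chr12:85473730-85473889 (plus strand) for Fos, chr7:19310046-19310205 (minus strand) for Fosb and chr17:26508473-26508632 (minus strand) for Dusp1.
Fos: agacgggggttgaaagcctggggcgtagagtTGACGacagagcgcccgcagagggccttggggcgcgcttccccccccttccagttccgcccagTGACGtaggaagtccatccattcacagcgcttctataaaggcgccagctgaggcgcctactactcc
Fosb: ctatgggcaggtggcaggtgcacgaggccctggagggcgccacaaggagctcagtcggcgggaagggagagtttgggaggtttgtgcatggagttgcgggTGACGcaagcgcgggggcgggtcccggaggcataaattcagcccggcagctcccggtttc
Dusp1: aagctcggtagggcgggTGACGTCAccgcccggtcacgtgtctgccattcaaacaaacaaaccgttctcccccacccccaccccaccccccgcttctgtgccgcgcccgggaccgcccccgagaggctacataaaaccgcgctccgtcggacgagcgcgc
In Dusp1 the cores of both strands overlap as the full palindrome. The RefSeq starts used for Fosb and Dusp1 lie inside the GENCODE spans given above. The window of Dusp1 therefore falls within its GENCODE span, and that of Fosb overlaps the end of its own. The core occurs on either strand in 13.8% of 32851 promoter windows of this length, and in 15.6% of 27025 genes. Of the 19 higher genes 14 had a window, and 5 of these held the core, while it was in 0 of the 11 lower genes with a window. A match in these letters is a description of the sequence only.

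Fos was higher past the ratio in 9 of 11 lineages. In monocytes and macrophages it stood at 1589 against 512 CPM, a ratio of 3.11 (3.04 to 3.17). In NK cells it stood at 846 against 432 CPM, a ratio of 1.96 (1.85 to 2.08), and in cDC2 at 861 against 271 CPM, a ratio of 3.18 (2.89 to 3.5). In conventional CD4 T cells the levels were 688 and 318 CPM. The exceptions were T cells: in CD8 T cells the levels were 183 and 127 CPM, a ratio of 1.44 (1.36 to 1.53), and in regulatory T cells 304 and 319 CPM, a ratio of 0.954 (0.827 to 1.10). Of the 11 lineages only the regulatory T cells had a ratio under 1, and the ratio was largest in cDC2 and in monocytes and macrophages.

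Dusp1 showed the same shape, with 665 against 202 CPM in monocytes and macrophages, a ratio of 3.29 (3.19 to 3.40). Its ratio was 2.61 (2.36 to 2.89) in NK cells, from 357 against 137 CPM, and 2.43 (2.04 to 2.90) in conventional CD4 T cells, from 279.6 against 115 CPM. In CD8 T cells it was 1.47 (1.34 to 1.61) and in regulatory T cells 1.48 (1.22 to 1.79), both just under the ratio of 1.5. All 11 ratios of Dusp1 lay above 1.

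Dusp2, on chromosome 2 (127336159 to 127338376, plus strand), encodes a phosphatase of activated leukocytes, and it was higher in 10 of 11 lineages. Its level was 554 against 295 CPM in NK cells and 97.7 against 24.4 CPM in monocytes and macrophages, where the ratio was 4.01 (3.67 to 4.39). Fosb, also higher in 10 of 11, stood at 376 against 92.2 CPM in monocytes and macrophages, a ratio of 4.07 (3.89 to 4.26), and at 493 against 237 CPM in B cells. Egr1, the gene of a zinc finger transcription factor that mitogens induce, was higher in 9 of 11, at 213 against 66.4 CPM in monocytes and macrophages and 259 against 85.5 CPM in conventional CD4 T cells. The lineages not past the ratio were CD8 T cells for Dusp2 (ratio 1.28), regulatory T cells for Fosb (1.23), and both of these for Egr1 (1.36 and 1.12).

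**Figure D3:**
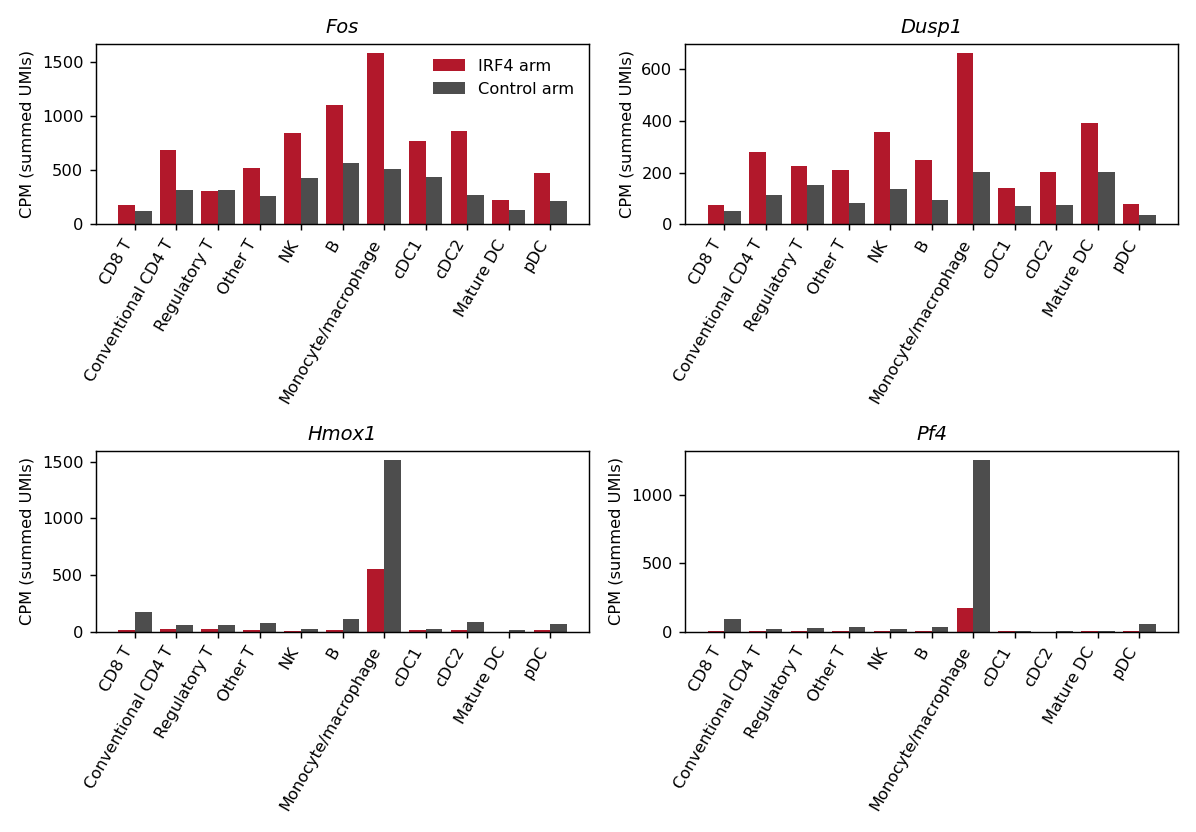
CPM of Fos, Dusp1, Hmox1 and Pf4 in each of 11 lineages in the IRF4 arm (red) and the control arm (grey), as UMIs summed over the cells of 1 library an arm, with bars from 0 and no error bar. Fos and Dusp1 are present in every lineage, and Hmox1 and Pf4 have their tallest bars in monocytes and macrophages.

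The share of cells with a Fos UMI also differed. To compare cells of different depth, each cell was thinned to 2000 UMIs, and cells below that were left out (5 and 4 monocytes or macrophages, 6 and 4 NK cells). A Fos UMI was then found in 75.3% (72.7 to 77.8) of monocytes and macrophages of the IRF4 arm and 50.9% (48.6 to 53.3) of those of the control arm. In NK cells the shares were 63.7% (60.8 to 66.6) and 45.1% (41.0 to 49.3). Unthinned they were 90.1% and 84.6% in monocytes and macrophages, at median depths of 11469 and 14050 UMIs, and 79.9% and 63.4% in NK cells. The thinned shares in CD8 T cells were 32.2% (30.2 to 34.3) against 22.7% (19.8 to 25.9), and 64.2% against 50.2% unthinned. In regulatory T cells the thinned shares were 40.3% (31.4 to 49.7) against 29.9% (19.97 to 41.4), with intervals that overlap, although their CPM were nearly level.

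Thinned shares of Dusp1 and Egr1 also differed. A Dusp1 UMI was in 58.3% (55.3 to 61.1) against 30.1% (28.0 to 32.3) of monocytes and macrophages and in 42.9% (39.9 to 45.8) against 21.3% (18.04 to 24.9) of NK cells. Unthinned, the Dusp1 shares were 83.5% and 71.8%, and 63.6% and 38.0%. For Egr1 the thinned shares were 29.5% against 11.8% in monocytes and macrophages and 27.1% against 12.6% in NK cells, and 61.1% against 37.5% and 46.2% against 21.9% unthinned. In plasmacytoid cells an Egr1 UMI was in 14.5% of thinned cells of the IRF4 arm and in 0 of 153 of the control arm, which, by a limit of 3 cells, allows a share of up to 1.96% with a UMI at this thinned depth. The unthinned shares there were 32.9% and 11.1%.

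The whole immediate early list behaved like its leading members in most lineages. Of 22 genes, 204 gene and lineage pairs were measured, and 102 (50%) were higher and 8 (3.92%) lower, where all measured genes had 5.36% higher and 5.58% lower over 62671 pairs. The list's median log2 ratio was above 0 in all 11 lineages, with a middle value of 0.60 and a range from 0.01 in CD8 T cells to 1.08 in monocytes and macrophages. The median over all measured genes lay between -0.04 and 0.11 in these lineages. In CD8 T cells it was 0.04, so the list did not stand above the other genes there. Ier2, Klf6 and Zfp36 were each higher in 8 of 11 lineages and Junb, another AP-1 subunit, in 7. Not every member followed: Jun, the usual partner of Fos, was at 1469 against 875 CPM in monocytes and macrophages (ratio 1.68) but at 489 against 719.9 CPM in regulatory T cells (ratio 0.680). Atf3, a stress-induced repressor, had a ratio of 0.209 (0.179 to 0.244) in CD8 T cells. Without cells holding more than 1 macrophage panel gene, no measured list gene was lower in these classes. The counts were then 0 of 16 in CD8 T cells and 0 of 15 in regulatory T cells.

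Heat shock genes, which protein stress induces, differed in shares of pairs near those of all genes. Of 136 measured pairs 8 (5.88%) were higher and 5 (3.68%) lower, against 5.36% and 5.58% of all measured pairs. Hspa1a, the inducible HSP70, stood at 1108 against 666 CPM in monocytes and macrophages, a ratio of 1.66 (1.63 to 1.70), and at 141 against 416 CPM in mature dendritic cells.

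Interferon-stimulated genes made up the second group. Iigp1 and its relatives Tgtp1 and Tgtp2 encode immunity-related GTPases, which interferon-gamma induces to attack vacuoles of intracellular microbes. Mx1, Oasl1 and Oasl2 belong to the antiviral response to type I interferon, and Isg15, a ubiquitin-like modifier, is on the type I list. Such genes are driven through the interferon-stimulated response element, read here as GAAA, any 2 bases, and GAAA again. It is shown in capitals, on either strand, in the 160 bases before Tgtp1, which was higher in all 6 lineages where it was measured, and Isg15. The windows are chr11:48992247-48992406 (minus strand) and chr4:156200819-156200978 (minus strand), from RefSeq on GRCm38.p6 and read along the gene.
Tgtp1: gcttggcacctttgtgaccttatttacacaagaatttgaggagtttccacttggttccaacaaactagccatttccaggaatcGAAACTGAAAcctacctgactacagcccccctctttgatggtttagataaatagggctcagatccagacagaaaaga
Isg15: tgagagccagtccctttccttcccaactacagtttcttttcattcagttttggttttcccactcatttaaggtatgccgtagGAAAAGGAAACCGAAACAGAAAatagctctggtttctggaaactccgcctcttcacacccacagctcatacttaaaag
In Isg15 3 overlapping matches form a run. The element is in 1.72% of all promoter windows and 2.002% of genes, in 3 of the 14 higher genes with a window and in 0 of the 11 lower ones.

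Isg15, on chromosome 4 (156199424 to 156200818, minus strand), stood at 421 CPM in monocytes and macrophages of the IRF4 arm and 144 CPM in those of the control arm, a ratio of 2.93 (2.82 to 3.04). Its ratio was 3.70 (2.73 to 5.10) in conventional CD4 T cells, from 126 against 34.1 CPM, and 3.29 (2.80 to 3.87) in cDC2, from 307 against 93.3 CPM. In CD8 T cells it was 1.11 (1.01 to 1.23) and in regulatory T cells 1.09 (0.811 to 1.47). In B cells it stood at 13.1 against 20.4 CPM, with a ratio of 0.643 (0.261 to 1.38). Isg15 was past the ratio in 6 of 11 lineages upward and in B cells downward. After thinning, an Isg15 UMI was in 35.1% (32.4 to 38.0) against 17.9% (16.2 to 19.8) of monocytes and macrophages, and in 67.5% against 49.2% without thinning.

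Tgtp1 stood at 55.4 against 19.5 CPM in cDC2 and at 49.5 against 15.4 CPM in conventional CD4 T cells, and Tgtp2 at 87.5 against 26.5 CPM in cDC2. In monocytes and macrophages Mx1 stood at 81.7 against 29.0 CPM and Oasl1 at 47.2 against 19.2 CPM. Mx1 and Oasl2 were each higher in 4 of the 5 lineages where they were measured, and Oasl1 in all 4.

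The type I list of 20 genes had 80 of 153 measured pairs higher (52.3%) and 9 lower (5.88%). Its median log2 ratio was 1.08 in conventional CD4 T cells, with 14 of 16 genes higher, 1.01 in cDC2, with 18 of 19 higher, and 1.005 in monocytes and macrophages, with 16 of 19 higher. Irf7, the transcription factor that amplifies type I interferon, was at 317 against 136 CPM in monocytes and macrophages and 244 against 58.0 CPM in cDC2, a ratio of 4.20 (3.46 to 5.11). None of the 12 genes measured in CD8 T cells were higher and the median was 0.03. It was -0.10 in regulatory T cells and -0.14 in B cells, where 5 genes were lower and 3 higher. Without cells holding more than 1 macrophage panel gene the B cell median was 0.15, with 3 of 7 genes higher and 0 lower, so its direction turned. The same setting took the plasmacytoid median from 0.67 to 0.16 and the regulatory T cell median to -0.39, and left conventional CD4 T cells at 1.17.

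The interferon-gamma list had 69 of 198 pairs higher (34.8%) and 12 lower (6.06%). In monocytes and macrophages 16 of 20 genes were higher, with a median of 0.93, and in cDC2 17 of 20, with a median of 0.86. Iigp1, on chromosome 18 (60376027 to 60392634, plus strand), was higher in 8 of 10 lineages. Its levels were 314 against 114 CPM in cDC2, a ratio of 2.76 (2.37 to 3.21), 276 against 148 CPM in regulatory T cells, and 19.1 against 25.9 CPM in CD8 T cells, a ratio of 0.735 (0.639 to 0.847). Cxcl9, a chemokine that draws CXCR3-bearing T cells, stood at 761 against 307 CPM in monocytes and macrophages and at 1058 against 314 CPM in cDC2. Cxcl10, which binds the same receptor, stood at 982 against 357 CPM in monocytes and macrophages. Cxcl9 in CD8 T cells stood at 20.9 against 50.8 CPM, and 50% of its UMIs there came from 3 and 4 cells. Cxcl10 was lower in CD8 T cells, at 21.3 against 47.5 CPM, and higher in other T cells, at 50.6 against 20.9 CPM.

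Genes of MHC class I presentation, which interferon also induces, were higher by a small margin. The list's median lay between 0.14 and 0.42 in the 11 lineages, all above 0. Of 219 pairs 20 (9.13%) were higher and 0 lower, against 5.36% and 5.58% of all measured pairs. H2-Q4, a class I heavy chain, stood at 111 against 66.9 CPM in monocytes and macrophages, a ratio of 1.66 (1.56 to 1.78), and was past the ratio in 3 lineages. The list of NF-kB and inflammatory genes had 44 pairs higher (29.1%) and 15 lower (9.93%) of 151. Its median was largest in cDC2 (0.85) and lowest in CD8 T cells (-0.43). Without cells holding more than 1 macrophage panel gene the CD8 T cell median was -0.08, with 0 of 11 genes past the ratio either way. Tnf, the inflammatory cytokine, was higher in 6 of 7 lineages at low levels, with 42.7 against 19.7 CPM in monocytes and macrophages. Nfkbiz and Tnfaip3, which NF-kB induces, were each higher in 6 lineages.

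**Figure D4:**
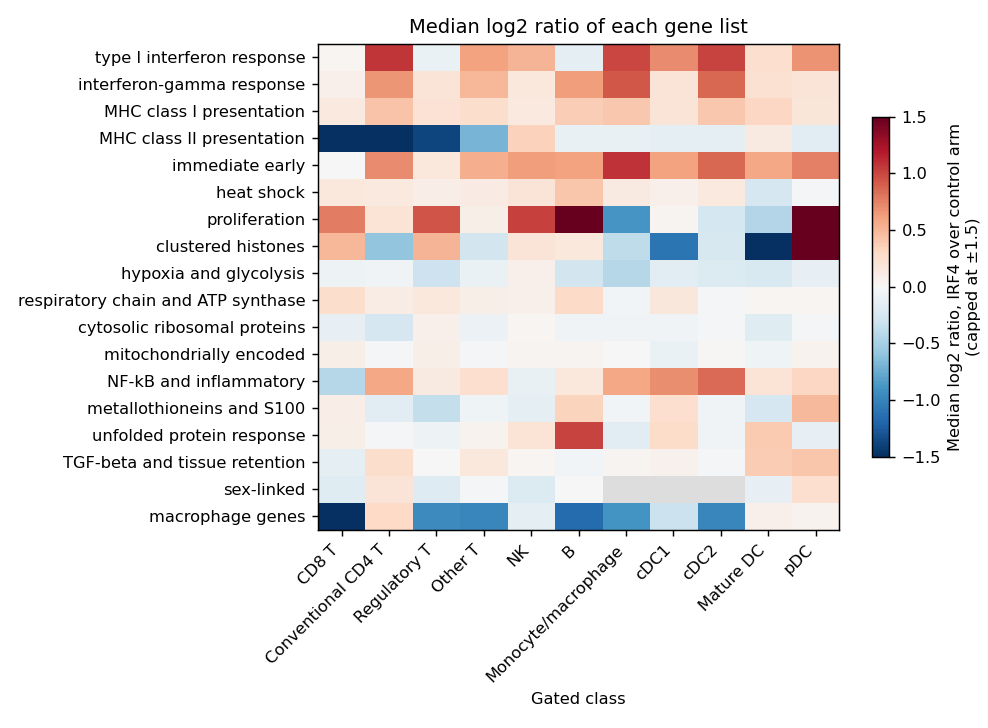
The median log2 ratio of CPM, IRF4 over control arm, of the measured members of each gene list in each of 11 lineages (1 library an arm), with colours capped at 1.5 either way and grey where fewer than 3 members were measured. The immediate early list is above 0 in all 11 lineages, though at only 0.01 in CD8 T cells. The type I interferon list reaches 1.08 in conventional CD4 T cells and 1.005 in monocytes and macrophages.

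Some of the higher genes rested on few cells. Gzma, the gene of granzyme A, was higher in 8 of 10 lineages, but its own lineage was NK cells, at 5629 against 5906 CPM. Outside NK cells, 50% of its UMIs came from 1 to 23 cells in the IRF4 arm, as in plasmacytoid cells, where 1 cell held that share and the level was 77.3 against 0.588 CPM. The mitochondrial transcript mt-Nd4l was higher in 9 of 11 lineages, at 165 against 108 CPM in CD8 T cells, while the list of 13 mitochondrially encoded genes had medians between -0.10 and 0.09 and 14 of 136 pairs higher. Atp5k, a short subunit gene of ATP synthase, was higher in 6 of 11. Ctla4, an inhibitory receptor of T cells, was measured in the 4 T cell classes and higher in each, with 1076 against 540.1 CPM in regulatory T cells, a ratio of 1.99 (1.81 to 2.19), and 80.5 against 43.1 CPM in CD8 T cells.

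The rest of the higher group were less abundant. Casp4, an inflammatory caspase that interferon induces, was higher in 6 of 8 lineages, at 113 against 46.9 CPM in monocytes and macrophages. Per1, a gene of the circadian clock that glucocorticoids and cAMP also induce, was higher in all 4 lineages where it was measured, at 34.3 against 20.8 CPM in monocytes and macrophages. Mir142hg, the host transcript of a leukocyte microRNA, was higher in 4 of 5, at 34.8 against 13.5 CPM in conventional CD4 T cells. Gdap10 was higher in 4 of 5, at 65.3 against 42.5 CPM in monocytes and macrophages.

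The genes lower in the IRF4 arm were led by Hmox1, the gene of heme oxygenase 1, which breaks down heme. It was lower in all 10 lineages where it was measured. In monocytes and macrophages it stood at 553 against 1519 CPM, a ratio of 0.364 (0.356 to 0.373). In CD8 T cells it stood at 16.3 against 175 CPM, where 50% of the control UMIs came from 5 cells. In NK cells it stood at 8.33 against 20.6 CPM, with that share spread over 31 control cells. After thinning, a Hmox1 UMI was found in 37.7% (34.8 to 40.5) of monocytes and macrophages of the IRF4 arm and 51.7% (49.4 to 54.1) of those of the control arm, and in 1.54% and 3.85% of NK cells. The unthinned shares were 71.3% and 86.2%, and 3.69% and 11.3%. The NK cell level was low in both arms.

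Pf4 encodes a platelet chemokine that resident-type macrophages also express, and its level was highest in monocytes and macrophages. There it stood at 169 against 1258 CPM, a ratio of 0.134 (0.129 to 0.140). Thinned shares there were 5.22% (4.005 to 6.67) and 25.5% (23.5 to 27.6), and unthinned shares 8.74% and 38.0%. In CD8 T cells it stood at 5.67 against 88.1 CPM, with 50% of the control UMIs from 3 cells. In NK cells, which should lack Pf4, a UMI was in 0.0904% and 2.97% of thinned cells.

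Several other genes that macrophages express were lower in monocytes and macrophages. Mrc1, the mannose receptor, stood at 61.7 against 370.3 CPM, a ratio of 0.167 (0.156 to 0.178), and Mmp12, macrophage elastase, at 34.7 against 217 CPM, a ratio of 0.160 (0.146 to 0.175). Dab2, an endocytic adaptor, stood at 164 against 587 CPM, Arg1, the arginine-degrading enzyme of suppressive macrophages, at 227 against 648 CPM, and Ctsl, a lysosomal protease, at 352 against 854 CPM. C1qc, a complement subunit, stood at 377 against 751 CPM and Ccl2, a chemokine for monocytes, at 1156 against 1849 CPM. Spp1, which encodes osteopontin, stood at 964 against 2535 CPM. Other macrophage genes did not differ past the ratio in these cells. Thbs1 stood at 698 against 747 CPM and Itgam, the CD11b chain, at 305 against 376 CPM. Both are among the 18 lower genes through other lineages. Csf1r, the receptor for macrophage growth factor, stood at 394 against 376 CPM. Lyz2 was higher, at 23254 against 15308 CPM.

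Part of the lower group also differed outside the monocytes and macrophages. Cd200r1, an inhibitory receptor of myeloid and T cells, was lower in all 6 lineages where it was measured, at 36.2 against 66.5 CPM in monocytes and macrophages and 10.8 against 30.9 CPM in CD8 T cells, where 45 and 31 cells held 50% of its UMIs. Clec4n, the gene of the fungal receptor dectin-2, was at 105 against 245 CPM in cDC2, and Cysltr1, a leukotriene receptor, at 75.9 against 138 CPM. Ankrd37, a gene that hypoxia induces, was lower in 6 of 7 lineages, at 56.5 against 87.3 CPM in monocytes and macrophages and 22.3 against 35.3 CPM in CD8 T cells. Igfbp4 was lower in all 4 lineages where it was measured, with 36.6 against 116 CPM in conventional CD4 T cells. Spint1, a protease inhibitor, was lower in 4 of 5, with 105 against 181 CPM in cDC2. Lymphoid and plasmacytoid cells holding more than 1 macrophage panel gene were also left out. Of the genes in this paragraph, only Cd200r1 and Igfbp4 then stayed lower in many lineages.

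Macrophage transcripts moved with this result in some lymphoid classes. Counted over 11 macrophage genes, the summed level in CD8 T cells was 3598 against 7835 CPM, with 10 of 11 genes lower. In conventional CD4 T cells it was 5263 against 5588 CPM, with 4 genes higher and 2 lower. Over the T, NK and B classes the sum ranged from 3598 to 7402 CPM in the IRF4 arm and from 3933 to 9367 CPM in the control arm, against 51593 and 60523 CPM in the monocytes and macrophages themselves. Over the 11 lineages the list had 10 pairs higher and 47 lower of 98. None of the 8 genes of the macrophage panel was at 0 in both libraries in any of these lymphoid classes, though Ms4a7 was at 0 in conventional CD4 T cells of the IRF4 arm and in regulatory T cells of the control arm. Cells holding more than 1 gene of the macrophage panel made up 27.5% and 35.6% of CD8 T cells, 36.8% and 46.9% of NK cells, and 36.7% and 60.3% of regulatory T cells. The panel includes Ccr2, at 678 against 725 CPM in NK cells and 497 against 720 CPM in regulatory T cells. In monocytes and macrophages Ccr2 stood at 952 against 842 CPM. A lymphocyte with Ccr2 and 1 other panel gene was therefore counted here. Without such cells in the T, NK, B and plasmacytoid classes, a comparison added after the data were seen, 8 genes were lower in many lineages, of which 5 were among the 18: Ccl2, Cd200r1, Hbb-bt, Hmox1 and Igfbp4. Of the 19 higher genes 12 remained, Fos, Fosb, Dusp1, Dusp2, Egr1, mt-Nd4l, Mir142hg, Mx1, Oasl1, Tgtp1, Tnf and Gdap10, and the immediate early medians were above 0 in all 11 lineages, from 0.27 to 1.08. The 7 that did not remain were Iigp1, Tgtp2, Casp4, Oasl2, Per1, Gzma and Ctla4. The source of the macrophage transcripts was not tested.

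Haemoglobin transcripts were almost absent from the IRF4 library outside NK cells. The 5 erythroid genes summed to 1841 CPM in monocytes and macrophages of the control arm and 1.23 CPM in those of the IRF4 arm. In B cells of the control arm they summed to 23104 CPM, but 50% of the Hbb-bs UMIs there came from 3 cells. A low level was also spread over many cells in control lineages: Hbb-bs stood at 24.1 CPM in cDC1, 34.1 CPM in plasmacytoid cells and 48.9 CPM in conventional CD4 T cells, where 25 cells held 50% of the UMIs, and at 0 in all 3 of these classes in the IRF4 arm. NK cells alone were the other way, at 146 against 74.9 CPM, with 50% of the IRF4 UMIs from 1 cell. The control library thus held haemoglobin RNA in every compared lineage. Over all lineages 23 of 26 measured erythroid pairs were lower and 3 were higher.

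Genes of MHC class II presentation, which T cells of mice do not normally express, were lower in T cells. These account for most of the 44 pairs lower of 126 (34.9%). Another 4 pairs (3.17%) were higher, where all measured pairs had 5.36% higher and 5.58% lower. The list's median was -2.19 in CD8 T cells, -2.69 in conventional CD4 T cells, -1.37 in regulatory T cells and -0.70 in other T cells. It was 0.34 in NK cells, and in the cells that present antigen it lay between -0.16 and 0.14. H2-Aa, a class II chain, stood at 109 against 615 CPM in CD8 T cells, with 50% of its UMIs from 10 and 13 cells, and at 8297 against 9370.1 CPM in cDC2. Without cells holding more than 1 macrophage panel gene the median was still lower in conventional CD4 T cells (-2.59, with 8 of 9 genes lower), CD8 T cells (-2.90) and other T cells (-1.54). It turned to 1.02 in regulatory T cells, of which only 76 against 31 were left, and to -0.51 in NK cells. The macrophage list's own medians in the first 3 of these classes were then -0.07, -0.22 and -0.05. Dendritic genes took no part in this filter. Over all conventional CD4 T cells the genes of the cDC2 panel were lower, except Clec10a at 13.6 against 13.5 CPM. Cd209a stood at 15.3 against 127 CPM there and Mgl2 at 1.18 against 38.6 CPM. The source of the class II transcripts was not tested.

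The list of hypoxia and glycolysis genes had 0 of 215 pairs higher and 39 lower (18.1%), against 5.36% and 5.58% of all measured pairs. Its medians were small, between -0.43 in monocytes and macrophages and 0.08 in NK cells. Bnip3, a mitophagy receptor that HIF induces, stood at 174 against 248 CPM in monocytes and macrophages, a ratio of 0.703 (0.672 to 0.735), and at 19.0 against 44.7 CPM in CD8 T cells. Ero1l, an oxidase of protein folding that HIF also induces, stood at 245 against 360.1 CPM and at 55.8 against 104 CPM in the same classes. Without cells holding more than 1 macrophage panel gene the list's median was 0.31 in place of -0.08 in CD8 T cells, 0.30 in place of -0.05 in conventional CD4 T cells and 0.27 in place of -0.10 in other T cells. The direction in these 3 classes therefore turned, while the medians of regulatory T cells, B cells and all phagocyte and dendritic classes were below 0 either way.

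Proliferation genes differed in opposite directions between classes. In CD8 T cells 18 of 23 were higher, with a median of 0.77, and in regulatory T cells 15 of 21, with a median of 0.95. NK cells had 10 of 12 higher, with a median of 1.03. In monocytes and macrophages 8 of 10 were lower, with a median of -0.88. Without cells holding more than 1 macrophage panel gene, CD8 T cells had 23 of 23 higher and a median of 1.07, and NK cells 9 of 11 and 1.06. The regulatory T cells then had 8 of 22 higher and a median of 0.29, from only 76 against 31 cells. Other T cells went from 0 of 22 higher to 14 of 21. Mki67, which marks cells in cycle, stood at 413 against 276 CPM in CD8 T cells, a ratio of 1.498 (1.44 to 1.56), at 63.0 against 22.1 CPM in NK cells, and at 23.1 against 51.5 CPM in monocytes and macrophages. Of its UMIs in NK cells, 50% came from 7 cells of the IRF4 library and 1 of the control library.

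The other lists were mixed or had few pairs past the ratio. Respiratory chain genes had 7 of 285 pairs higher and 0 lower, cytosolic ribosomal proteins 0 higher and 6 lower of 286, and metallothioneins with S100 genes 8 higher and 6 lower of 71. The TGF-beta and tissue retention list had 13 higher and 6 lower of 113, and the sex-linked list 2 and 3 of 37. Clustered histones had 22 higher and 28 lower of 106, and the unfolded protein response 11 higher and 2 lower of 128, with 9 of the 11 in B cells. Of the lists for free RNA, melanoma genes had 2 higher and 9 lower of 14, immunoglobulins 5 higher and 3 lower of 23, neutrophil granule genes 1 lower of 1, and stroma genes none measured.

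Levels were also compared over all kept cells together. Of 6230 genes measured in the whole infiltrate, 488 (7.83%) were higher and 645 (10.4%) lower past the ratio. When the classes were given the same weights in both arms, 55 (11.3%) of the higher genes and 125 (19.4%) of the lower genes were still past it, and 0 had turned. Among the ranked genes at 50 CPM or more, the highest ratio belonged to Gzmk, the gene of granzyme K, a protease of CD8 T cells, at 192 against 26.3 CPM, a ratio of 7.31 (6.99 to 7.65). At equal weights it was 135 against 43.7 CPM, a ratio of 3.10. Sh2d1a, Eomes and Pdcd1, genes of T and NK cells, had ratios of 3.56, 3.34 and 3.23 in the whole infiltrate and of 1.64, 1.55 and 1.55 at equal weights. The proliferation genes Rrm2, Hmgb2, Dut and Ccna2 had ratios of 3.40, 2.97, 2.89 and 2.88 in the whole infiltrate and of 1.90, 1.87, 1.56 and 1.71 at equal weights.

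Of the 10 lowest ranked genes, 4 were haemoglobin genes and the other six were macrophage or inflammatory genes. Pf4 stood at 49.98 against 658 CPM over all cells, a ratio of 0.0759 (0.0735 to 0.0784), and its ratio was 0.146 at equal weights. The ratios of Mmp12, Mrc1, Cxcl3, Stab1 and Dab2 went from 0.0881, 0.0910, 0.0872, 0.112 and 0.148 to 0.137, 0.172, 0.150, 0.214 and 0.281. Fos, by contrast, was further apart at equal weights: its ratio was 1.73 over all cells and 2.50 with the same make-up. For Dusp1 the ratios were 1.83 and 2.61, and for Hmox1 0.174 and 0.324.

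**Figure D5:**
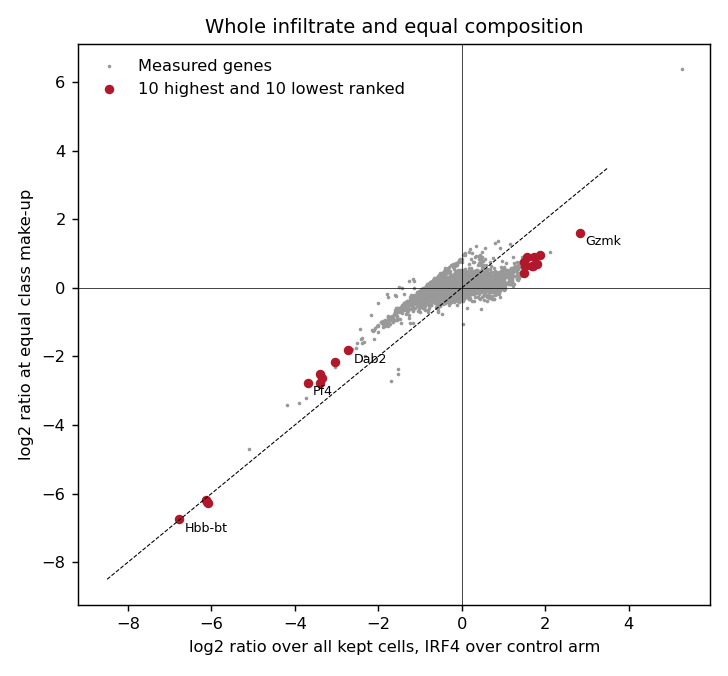
Each point is a gene measured in the whole infiltrate, with its log2 ratio over all kept cells (IRF4 over control arm) on the x axis and the same at equal class weights on the y axis; the dashed line marks equal values and red points the 10 highest and 10 lowest ranked genes at 50 CPM or more. Gzmk moves from a ratio of 7.31 to 3.10, the haemoglobin genes stay near the line, and the lone grey point at upper right is Ighg2c, an antigen receptor gene that was not ranked.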

How the data were processed

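The deposited values are raw UMI counts per gene and barcode, made with Cell Ranger 3.0.2 and STAR 2.6 on mm10, per the submitters' processing notes. The gene model set, not given in the sources used here, may differ from the GENCODE vM21 annotation that gave the positions. The labels' protocol speaks of nuclei although sorted cells are described.

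Barcodes with at least 1000 UMIs and 500 genes and at most 10% mitochondrial UMIs were kept. Classes came from 13 marker panels, and T cells were divided by Cd8a, Cd8b1, Cd4 and Foxp3 UMIs. No doublet caller was run: cells carrying panels of 2 compartments were put in the mixed class. UMIs were summed per class and library and compared as log2 ratios after 1 CPM was added. Equal weights are the mean of the classes' UMI shares in both libraries. Intervals are exact binomial intervals at 95% and cover counting error only, since each group is 1 library. The calculations were tested on simulated counts. Python 3.11.15, numpy 2.4.6, scipy 1.17.1, pandas 2.3.3 and matplotlib 3.10.9 were used.

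The members and the 23 gene lists were chosen with earlier results of these data known. The genes named are the gate markers, up to 4 per list, 15 per direction among genes shifted in many lineages and 10 per direction over all kept cells at 50 CPM or more. Predicted, ribosomal, mitochondrial and antigen receptor genes were counted but not ranked. Trbv14, Mx1, Oasl2, Gdap10, Igfbp4, C1qc, Spint1, Cxcl9, Cxcl10, Ier2, Klf6, Zfp36, Junb, Jun, Atf3 and Mki67 fell outside that rule and were chosen after their values were seen. Alternatives changed the gates, depth, filters, pseudocount, ratio and lineages. The transferred cells were used only for the Trbv14 check.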

Additional observations from a re-analysis of the deposited data

Results flagged for a closer look

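The proliferation list stood on opposite sides of 0 in different classes, with a median log2 ratio of 2.18 in plasmacytoid dendritic cells and -0.88 in monocytes and macrophages. The difference between the classes was not tested. In plasmacytoid cells 8 of 23 genes were measured, from 76 and 153 cells, and without cells holding more than 1 macrophage panel gene the median was 0.02.

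Clustered histone genes had a median of 1.76 in plasmacytoid cells, over 5 measured genes, and -1.52 in mature dendritic cells, over 7. This difference was not tested either. Without the same cells 2 histone genes were measured in plasmacytoid cells, both lower, with a median of -1.11.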

How the results depend on the processing

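No paired analysis was possible because each group is 1 library. Of 70 recomputed shares of the main classes, 66 moved by less than their counting interval. The ratio of shares of conventional CD4 T cells was 1.48 with cells thinned to 2000 UMIs and 1.40 with at most 5% mitochondrial UMIs, that of regulatory T cells 2.02 with thinned cells, and that of plasmacytoid cells 0.283 with at most 5% mitochondrial UMIs. Gene and lineage pairs higher numbered 1677 at 50 CPM, 16090 with no filter and 843 at a ratio of 2, and pairs lower 1197, 19808 and 1232. Genes higher in many lineages numbered 1 at a ratio of 2, 4 when all measured lineages had to be past the ratio and 12 without monocytes and macrophages. Genes lower in many lineages numbered 10 at 50 CPM, 35 with no filter, 7 in lineages at 10% or more of the top level, 11 at a ratio of 2, 10 when all measured lineages had to be past the ratio, and 8 without lymphoid and plasmacytoid cells holding more than 1 macrophage panel gene, an alternative chosen after the data were seen. That last setting moved the macrophage list's middle median from -0.90 to -0.22. Of the higher genes, Dusp1, Dusp2, Fos and Fosb were kept under the 8 settings that changed the scaling, the filters, the pseudocount or the cells and without each of the 11 lineages, and 0 of the lower genes were. These 4 were lost at a ratio of 2, which kept only Mir142hg, and when all measured lineages had to be past the ratio, which kept Ctla4, Oasl1, Per1 and Tgtp1. Medians over lineages changed sign for Gzma (-0.069) and Iglc1 (0.28) in lineages at 10% or more of the top level and for Jchain (-0.36) with no filter. The cause of these changes was not tested. Among compared classes, IRF4-arm B cells had the fewest UMIs, 608753 in total.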

Other observations

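B cells of the IRF4 arm, only 124 cells, held more of some transcripts of antibody-secreting cells than the 504 of the control arm. Ighg2c, the constant region of an IgG class, stood at 5061 CPM against 0, and Xbp1, which plasma cells need for secretion, at 279 against 46.1 CPM. For each of these genes, 50% of the IRF4 UMIs came from 1 cell. The unfolded protein response list, which holds Xbp1, had 9 of 12 measured genes higher in B cells.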
